A study of Homo sapiens with 18 samples.

Results

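Collagen chains are the alpha chains that wind into the triple helices of the extracellular matrix. In these RNA-seq tables, 44 genes have a symbol made in full of COL, digits, A and digits, of 60595 genes listed. The 27 chains that reached 1 FPKM or more in at least 2 of 18 libraries are described here, out of 18436 genes that did so. FPKM scales fragment counts by transcript length and by library depth, so levels can be set side by side between genes. By type, 7 of 11 fibrillar chains, 5 of 9 network chains and 15 of 24 other chains passed that level. COL14A1, COL21A1 and COL24A1 stood just inside it with 2 libraries each, and COL22A1 just outside it with 1 library and a highest value of 1.35 FPKM.

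Fibrillar collagens (types I, II, III, V, XI, XXIV and XXVII) form or nucleate the cross-striated fibrils, and type V chains set fibril diameter. Network collagens (IV, VIII and X) form sheets, of which type IV is the scaffold of basement membranes. The other types are the beaded filaments of type VI, the anchoring fibrils of type VII, the FACIT collagens that sit on fibrils (IX, XII, XIV, XVI, XIX, XXI), the transmembrane collagens (XIII, XVII) and the multiplexins of basement membranes (XV, XVIII). Chains trimerize in the endoplasmic reticulum after prolyl and lysyl hydroxylation, and lysyl oxidases cross-link the secreted product. Melanoma cells can make their own collagens as well as meet those of fibroblasts.

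All RNA came from A375, a human melanoma line with an activating BRAF mutation. From the titles of samples and series, P was taken to be parental A375 and R a derivative that resists BRAF and MEK inhibition; how R was derived is not stated in the labels. P_DMSO, P_DT, R_DMSO and R_DT are labelled wild type and received vehicle (DMSO) or 250 nM dabrafenib, a BRAF inhibitor, together with 10 nM trametinib, a MEK inhibitor (DT). P_shCtrl, P_shLSD1, R_shCtrl, R_shLSD1 and R_shFosL1 carried a lentiviral control hairpin or a hairpin against LSD1, the histone demethylase encoded by KDM1A, or against the AP-1 subunit FOSL1, with no drug given in their labels. Each of the 9 groups has 2 libraries, which the labels do not call separate cultures, so p-values measure the spread between these libraries and may be technical.

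Library totals were 556410 to 814364 FPKM with 13921 to 15314 genes at 1 FPKM or more. Steps of whole fragments, clear in 12 libraries, put depth at 8.2 to 11 M fragments if fragments are taken as 250 bases long. The P_DMSO libraries stood apart from each other, with an SD of log2 differences between replicates of 0.73 against 0.40 to 0.50 in the other 8 groups, and the changes called against them are also given without each. KDM1A averaged 75.2 ± 4.03 FPKM (SD, n = 2) in P_shCtrl and 8.13 ± 1.99 in P_shLSD1, and 74.9 ± 2.27 in R_shCtrl and 10.6 ± 0.731 in R_shLSD1. FOSL1 averaged 107 ± 3.79 FPKM in R_shCtrl and 37.3 ± 1.505 in R_shFosL1. DUSP6, a readout of ERK signalling, fell under the drugs from 59.7 to 5.82 FPKM in P and from 34.3 to 7.80 FPKM in R. The melanocyte factor SOX10 ranged from 89.1 to 333 FPKM in the P libraries and was at 0 in 9 of 10 R libraries (0.164 FPKM in R_DT replicate 2), and MITF ranged from 4.82 to 54.2 FPKM over both lines. TYR was listed at 0 in every library and MLANA stayed below 1 FPKM, so the melanocytic label rested on few of its 8 markers. Among 9 fibroblast markers, summed to 23.8 to 76.7 FPKM with PDGFRB, PRRX1, TWIST2 and LUM carrying the sum, DPT was listed at 0 throughout and THY1 stayed below 1 FPKM. Of the leukocyte markers, PTPRC never reached 1 FPKM, but CSF1R read 3.29 to 19.8 FPKM in the 10 R libraries. Of the endothelial markers, PECAM1 never reached 1 FPKM, KDR read 2.27 and 1.94 FPKM in P_DMSO and CDH5 6.17 and 6.83 FPKM in R_DT. The part of these markers in the chains' values was not tested.

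Levels spanned a wide range and differed in their leading chain. In the 4 P groups the fibrillar type was led by COL5A2 in every library, and in the 5 R groups by COL5A1. The summed level of all 44 chains was 379 ± 132 FPKM in P_DMSO (SD, n = 2) and 1153 ± 119 in P_DT. In R it was 335 ± 16.5 FPKM in R_DMSO and 887 ± 15.3 in R_DT. In bulk RNA, fewer cells of a type and less RNA per cell cannot be told apart. The drug groups held the highest sums of the drug table, without overlap with their vehicle libraries. Network chains made up 7.24% of the summed level in P_DT but 51.2% in R_DT. In the hairpin tables the sum was 416 ± 36.7 FPKM in P_shCtrl, 662 ± 12.9 in P_shLSD1, 387 ± 10.5 in R_shCtrl, 393 ± 0.716 in R_shLSD1 and 304 ± 0.0235 in R_shFosL1. Both P_shLSD1 libraries stood above both P_shCtrl libraries, whereas both R_shLSD1 libraries lay between the R_shCtrl libraries.

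**Figure D1:**
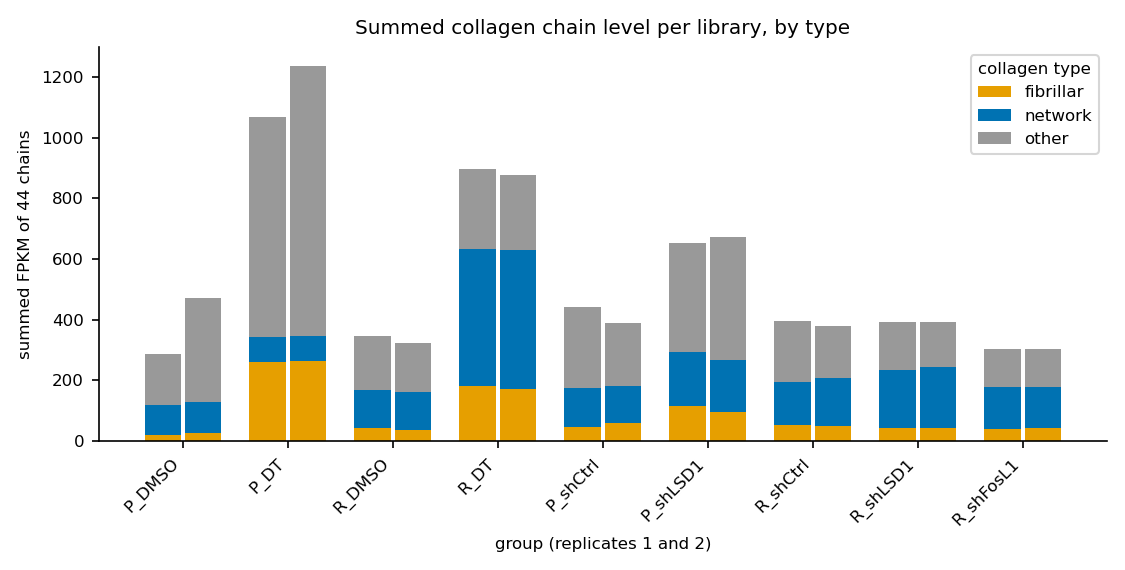
Summed FPKM of the 44 collagen chains in each library, with replicates 1 and 2 side by side and the bar split by type. The bars of P_DT (mean 1153 FPKM) and R_DT (mean 887 FPKM) are the tallest, and the network share is 7.24% in P_DT and 51.2% in R_DT.

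**Figure D2:**
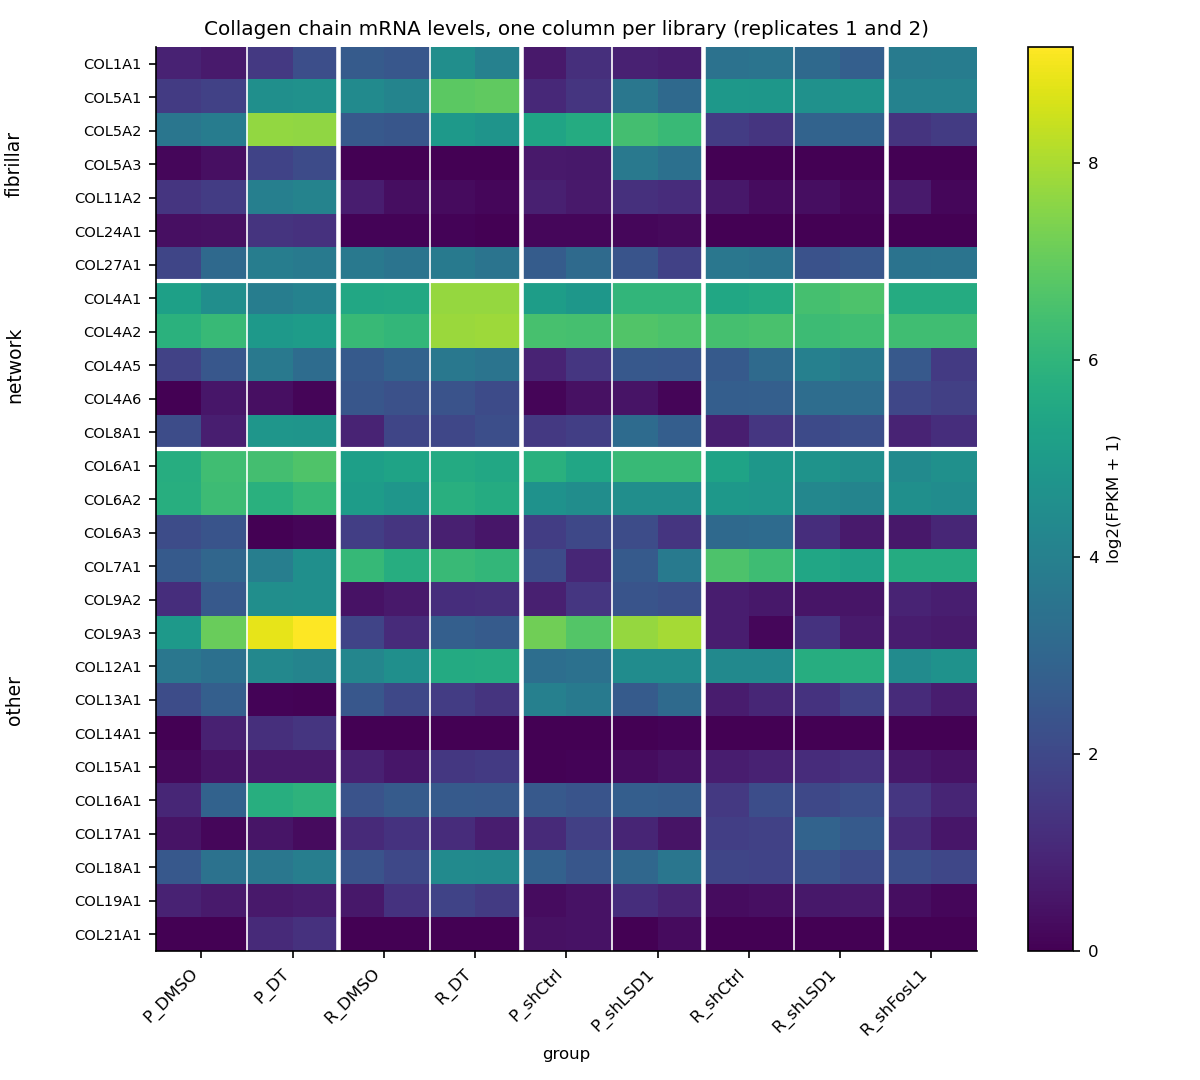
Level of each of the 27 described chains as log2(FPKM + 1), 1 column per library and 1 row per chain, with thick lines between the deposited tables and between types. COL9A3 is brightest in P_DT (459 and 577 FPKM) and below 6 FPKM in every R library.

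Several chains lacked the partners they are known to trimerize with. COL1A1, the main chain of type I collagen, reached 22.3 FPKM in R_DT, while COL1A2, its usual partner, was listed at 0 in 17 libraries with a highest value of 0.0269 FPKM. COL9A3 reached 577 FPKM in P_DT and its type IX partner COL9A2 reached 23.0 FPKM, whereas COL9A1 never exceeded 0.0552 FPKM. COL11A1 stayed at or below 0.947 FPKM, and COL4A3 and COL4A4 at or below 0.259 FPKM. Apart from such partners, the fibrillar chain COL3A1 stayed at or below 0.989 FPKM. mRNA levels do not say which trimers were made.

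Some chains sit beside each other in the genome, and their promoters are shown because these neighbours did not always move together. On hg38 (GENCODE 29), COL4A1 lies on chromosome 13 from 110148963 to 110307233 on the minus strand and COL4A2 from 110305812 to 110513209 on the plus strand, head to head, overlapping, with starts 1421 bases apart. COL4A6 (X, 108155607 to 108439497, minus strand) and COL4A5 (X, 108439844 to 108697545, plus strand) are also head to head, 346 bases apart. COL6A1 and COL6A2 lie on chromosome 21 in the same orientation, 93046 bases apart. All 27 are protein-coding. The printed sequences come from RefSeq (GRCh38.p14), 5′ to 3′, in the 250 bases before a RefSeq start, or the 126 bases between the RefSeq starts of COL4A1 and COL4A2. GENCODE places these starts differently. By its coordinates the 126 bases lie inside COL4A2 and partly inside COL4A1. COL5A1 and COL12A1 are shown because both rose under the drugs in each line. Capitals mark matches on either strand to GGGCGG (Sp1) or CCAAT.
between COL4A1 and COL4A2, chr13:110307158-110307283, plus strand: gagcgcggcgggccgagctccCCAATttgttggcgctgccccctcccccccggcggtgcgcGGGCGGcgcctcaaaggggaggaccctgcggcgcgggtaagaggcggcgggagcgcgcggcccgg
COL4A5, chrX:108439588-108439837, plus strand: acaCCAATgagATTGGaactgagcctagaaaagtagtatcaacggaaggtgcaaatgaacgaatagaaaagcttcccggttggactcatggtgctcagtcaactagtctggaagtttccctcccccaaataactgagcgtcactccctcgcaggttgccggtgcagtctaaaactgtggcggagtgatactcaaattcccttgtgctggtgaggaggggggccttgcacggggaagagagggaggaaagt
COL5A1, chr9:134641553-134641802, plus strand: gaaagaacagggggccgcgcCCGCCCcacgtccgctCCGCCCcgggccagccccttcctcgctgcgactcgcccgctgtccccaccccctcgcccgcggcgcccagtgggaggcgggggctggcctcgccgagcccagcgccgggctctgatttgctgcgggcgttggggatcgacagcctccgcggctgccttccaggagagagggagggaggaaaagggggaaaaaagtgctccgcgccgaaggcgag
COL12A1, chr6:75206054-75206303, minus strand: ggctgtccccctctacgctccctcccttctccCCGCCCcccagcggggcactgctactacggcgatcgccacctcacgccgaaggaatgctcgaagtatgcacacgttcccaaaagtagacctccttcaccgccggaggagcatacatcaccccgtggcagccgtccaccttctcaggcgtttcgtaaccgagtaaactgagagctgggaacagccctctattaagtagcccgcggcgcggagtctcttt
RefSeq windows were at hand for 21 described chains (30 windows). GGGCGG occurred in 19 of the 30 windows and in 42.6% of all 35116 windows, CCAAT in 7 and 32%, TATAAA in 5 and 10.7%, CATGTG, the core that MITF can bind, in 1 and 9.42%, and TGANTCA, the AP-1 motif, in 0 and 4.2%. These motifs were searched on both strands, and a match describes letters only.

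In the P line, dabrafenib plus trametinib moved most collagen chains, and the fibrillar ones all upward. Of 27 chains tested, 15 rose and 4 fell, against 12.8% of all genes higher and 9.67% lower (22.5% either way), with limma at an adjusted p below 0.05. The median change of the 27 chains was 0.97 and that of all genes 0.11, on the log2(FPKM + 1) scale used for every change below, each given with its standard error. All 7 fibrillar chains rose (median 1.70), 2 network chains rose and 2 fell, and 6 other chains rose and 2 fell. COL5A3, COL14A1, COL15A1, COL21A1 and COL24A1 entered this fit through 1 group alone, so the 3 of them that rose were bound to be high there. These chains also count in the medians. COL5A3 and COL24A1 are among the fibrillar chains that rose, and they hold the medians 1.70 and 0.97 themselves.

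Among the fibrillar chains, COL5A2 and COL5A1 had the highest log2 changes. COL5A2 stood at 11.3 and 13.6 FPKM in P_DMSO and at 203 and 200.2 FPKM in P_DT, 16.2-fold higher (3.92 ± 0.15, adjusted p = 7.89e-05). COL5A1 stood at 2.06 and 2.42 FPKM in P_DMSO and at 22.7 and 23.97 FPKM in P_DT, 10.4-fold higher (2.91 ± 0.15, adjusted p = 0.000136). For both chains the replicates nearly coincided and the groups did not overlap. The remaining type V chain, COL5A3, went from 0.125 and 0.305 FPKM to 2.63 and 3.25 FPKM (1.70 ± 0.22, adjusted p = 0.00340). COL11A2, a type XI chain of cartilage fibrils, went from 1.65 and 2.09 FPKM to 14.4 and 16.2 FPKM (2.51 ± 0.23, adjusted p = 0.000900). The calls of COL5A2, COL5A1 and COL11A2 were kept when any 1 library was left out, with changes of 3.79 and 4.05, of 2.83 and 2.99 and of 2.398 and 2.62 without P_DMSO replicate 1 or 2 in turn. COL27A1 read 2.74 and 7.78 FPKM in P_DMSO and 13.8 and 12.7 FPKM in P_DT (1.31 ± 0.37, adjusted p = 0.0465), and COL1A1 0.859 and 0.602 FPKM against 1.85 and 3.64 FPKM (1.08 ± 0.30, adjusted p = 0.0427). Both sat near the threshold and were lost in some fits without 1 library, with adjusted p up to 0.184 and 0.199. Without P_DMSO replicate 1 or 2 in turn the change of COL27A1 was 0.699 and 1.93 and that of COL1A1 1.18 and 0.97. COL24A1, 0.288 and 0.322 FPKM in P_DMSO, reached 1.63 and 1.49 FPKM (0.97 ± 0.21, adjusted p = 0.0199). Without the same libraries in turn COL5A3 changed by 1.59 and 1.804 and COL24A1 by 0.95 and 0.99.

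Among the network chains the type IV pair fell while the others rose or did not pass. COL4A1 went from 36.1 and 22.3 FPKM in P_DMSO to 13.7 and 15.7 FPKM in P_DT (-0.91 ± 0.22, adjusted p = 0.0283). COL4A2 went from 56.4 and 72.4 FPKM to 29.2 and 32.5 FPKM (-1.03 ± 0.15, adjusted p = 0.00517). The groups did not overlap for either chain, and COL4A1 lost its call without either P_DT library (adjusted p up to 0.148). COL8A1, a type VIII chain of short-chain networks, went from 3.37 and 0.716 FPKM to 26.95 and 26.7 FPKM (3.35 ± 0.49, adjusted p = 0.00508). COL4A5 rose from 2.52 and 4.67 FPKM to 11.98 and 8.41 FPKM (1.31 ± 0.28, adjusted p = 0.0201), and its neighbour COL4A6 stayed below 0.5 FPKM in all 4 libraries, at 0.311 and 0.0914 FPKM in P_DT. Without P_DMSO replicate 1 or 2 in turn the changes were -0.57 and -1.24 for COL4A1, -1.21 and -0.85 for COL4A2, 4.02 and 2.67 for COL8A1 and 0.96 and 1.65 for COL4A5, so the size for COL4A1 depended on which vehicle library was used.

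The highest collagen values of the study were those of COL9A3. It read 30.4 and 135 FPKM in P_DMSO and 459 and 577 FPKM in P_DT (2.98 ± 0.63, adjusted p = 0.0182). The P_DMSO libraries were far apart, and the change was 1.93 without P_DMSO replicate 1 and 4.04 without replicate 2. Its call was lost without either P_DT library, with adjusted p up to 0.107. COL9A2 went from 1.32 and 4.88 FPKM to 21.9 and 23.0 FPKM (2.67 ± 0.41, adjusted p = 0.00595). COL16A1, a FACIT collagen of fibril surfaces, went from 0.979 and 6.40 FPKM to 53.2 and 60.2 FPKM (3.91 ± 0.54, adjusted p = 0.00432), by 2.96 without P_DMSO replicate 1 and by 4.86 without replicate 2. Vehicle libraries of both chains were uneven, yet far below the treated ones, and COL9A2 changed by 1.995 and 3.34 without P_DMSO replicate 1 or 2 in turn. COL7A1, the anchoring fibril chain, read 5.10 and 7.14 FPKM in P_DMSO and 14.2 and 22.6 FPKM in P_DT (1.43 ± 0.27, adjusted p = 0.0121). COL12A1, a FACIT collagen of dense connective tissue, read 11.5 and 9.53 FPKM against 18.3 and 16.7 FPKM (0.69 ± 0.17, adjusted p = 0.0334). COL12A1 did not pass in 3 of 4 fits without 1 library (adjusted p up to 0.162). COL21A1, listed at 0 in both P_DMSO libraries, read 1.15 and 1.48 FPKM in P_DT (1.21 ± 0.22, adjusted p = 0.0107). Without P_DMSO replicate 1 or 2 in turn the changes were 1.22 and 1.64 for COL7A1 and 0.81 and 0.57 for COL12A1. That of COL21A1 could not change, since both P_DMSO libraries read 0 FPKM. The calls of COL4A5, COL7A1, COL21A1 and COL24A1 were each lost in at least 1 fit without 1 library.

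Of the other types, 2 chains fell to near 0 in P_DT. COL13A1, a transmembrane collagen of cell adhesions, went from 3.41 and 5.85 FPKM to 0.0632 and 0.0392 FPKM (-2.39 ± 0.29, adjusted p = 0.00276). COL6A3, the longest chain of type VI, went from 3.34 and 4.27 FPKM to 0.0120 and 0.104 FPKM (-2.18 ± 0.24, adjusted p = 0.00168). Without P_DMSO replicate 1 or 2 in turn COL13A1 changed by -2.71 and -2.07 and COL6A3 by -2.32 and -2.04. The partners of COL6A3 did not pass: COL6A1 read 51.5 and 82.2 FPKM in P_DMSO and 86.1 and 100.4 FPKM in P_DT (0.51 ± 0.22, adjusted p = 0.149), and COL6A2 read 53.5 and 77.5 FPKM against 56.2 and 69.8 FPKM (-0.04 ± 0.21, adjusted p = 0.919). COL18A1, the multiplexin from which endostatin is cleaved, read 4.71 and 10.1 FPKM in P_DMSO and 11.3 and 14.0 FPKM in P_DT (0.77 ± 0.32, adjusted p = 0.132). COL14A1, COL15A1, COL17A1 and COL19A1 stayed at or below 1.66 FPKM and did not pass either, with COL17A1 at 0.411 and 0.131 FPKM in P_DMSO and 0.418 and 0.214 FPKM in P_DT. Leaving out replicate 1 or 2 of P_DMSO gave 17 and 20 chains called, and leaving out replicate 1 or 2 of P_DT gave 13 and 10. In all 4 of these fits 10 of the 19 calls were kept, COL5A3 among them, which entered through P_DT alone.

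In the R line the same drugs raised 7 of the 27 chains and lowered 0, where limma called 6.48% of all genes (3.65% higher and 2.83% lower) and 13 of the 27 chains had an unadjusted p below 0.05, against 24.1% of all genes. The median change was 0.65 for the chains and -0.03 for all genes. The 7 were 3 fibrillar chains, 2 network chains and 2 others. COL5A1 went from 20.04 and 16.8 FPKM in R_DMSO to 115 and 121 FPKM in R_DT (2.62 ± 0.15, adjusted p = 0.000556), and COL5A2 from 4.89 and 4.44 FPKM to 29.5 and 26.1 FPKM (2.34 ± 0.15, adjusted p = 0.000894). These rises were 6.41-fold and 5.96-fold, with no overlap between groups, and were the 2 calls kept whichever library was left out. COL1A1 went from 5.26 and 4.63 FPKM to 22.3 and 15.4 FPKM (1.72 ± 0.30, adjusted p = 0.0230).

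The type IV pair moved in R opposite to P. COL4A1 went from 44.8 and 45.9 FPKM in R_DMSO to 212 and 211 FPKM in R_DT, 4.67-fold higher (2.199 ± 0.22, adjusted p = 0.00484). COL4A2 went from 71.0 and 67.1 FPKM to 221 and 226 FPKM, 3.24-fold higher (1.68 ± 0.15, adjusted p = 0.00340). Both treated libraries stood far above both vehicle libraries for each chain. COL18A1 went from 4.15 and 2.95 FPKM to 20.1 and 19.3 FPKM (2.2 ± 0.32, adjusted p = 0.0148), and COL12A1 from 17.4 and 22.8 FPKM to 47.5 and 49.2 FPKM (1.24 ± 0.17, adjusted p = 0.0129). COL18A1 shares 1401 exon bases, 16.4% of its own, with SLC19A1 on the opposite strand, and the strand setting of the counting is not given in the sources used here. The summed level of the 7 endothelial markers was 0.413 and 0.913 FPKM in R_DMSO and 8.73 and 8.68 FPKM in R_DT. Most of the R_DT sums came from CDH5, at 6.17 and 6.83 FPKM, and TEK read 1.26 and 0.857 FPKM. The other 5 of 7 markers stayed below 1 FPKM in both R_DT libraries, with PECAM1 at 0.730 and 0.0180 FPKM and ERG listed at 0. The part of the endothelial markers in the result was not tested. Without any 1 of the 4 R libraries 2 or 3 chains were called, COL4A1 with adjusted p up to 0.0633, COL4A2 0.0573, COL18A1 0.119, COL12A1 0.106 and COL1A1 0.154.

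**Figure D3:**
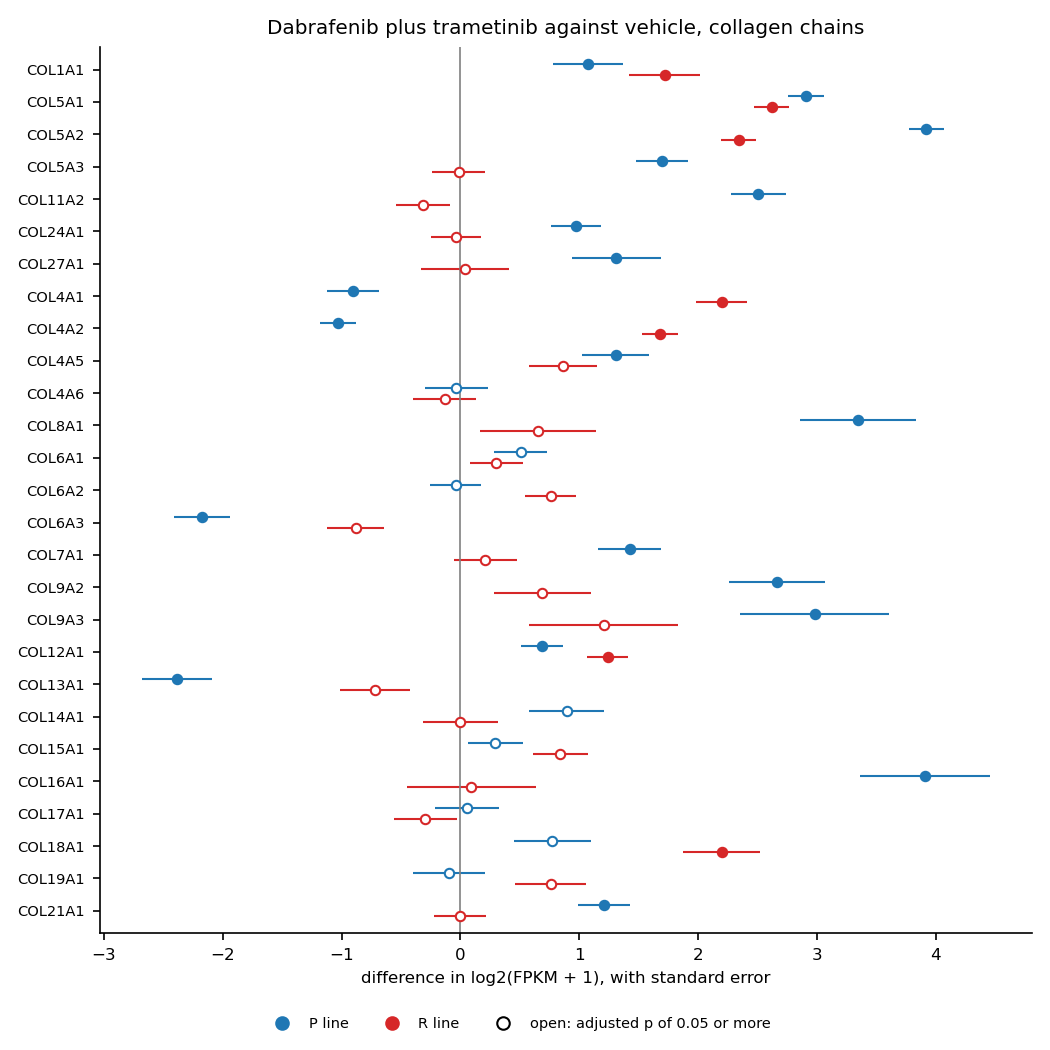
Difference in log2(FPKM + 1) between drug and vehicle libraries for each chain, with its standard error, in the P line (blue) and the R line (red). Filled points passed an adjusted p of 0.05. COL4A1 and COL4A2 lie below 0 in P (-0.91 and -1.03) and above 0 in R (2.199 and 1.68).

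Chains that did not pass in R included some with large rises in P. The 8 drug libraries shared 1 estimate of spread per gene, so uneven P_DMSO libraries also widened the standard errors here. In a fit of the R_DMSO and R_DT libraries alone, 9 of 22 chains were called higher and 0 lower, with 2506 of all genes called. COL9A3 read 2.65 and 1.17 FPKM in R_DMSO and 5.89 and 5.13 FPKM in R_DT (1.21 ± 0.63, adjusted p = 0.297). COL16A1 read 4.13 and 5.28 FPKM against 5.12 and 4.98 FPKM (0.09 ± 0.54, adjusted p = 0.950), with overlapping groups. COL8A1 read 0.896 and 2.76 FPKM against 2.84 and 3.60 FPKM (0.65 ± 0.49, adjusted p = 0.468). COL7A1 was high in both R groups, at 70.3 and 51.8 FPKM in R_DMSO and 73.4 and 66.6 FPKM in R_DT (0.21 ± 0.27, adjusted p = 0.687). COL6A3 read 2.28 and 1.64 FPKM against 0.743 and 0.466 FPKM (-0.88 ± 0.24, adjusted p = 0.0755). COL6A1 read 35.4 and 39.2 FPKM in R_DMSO and 47.6 and 44.7 FPKM in R_DT, COL27A1 12.1 and 10.5 FPKM against 12.7 and 10.7 FPKM and COL4A6 4.52 and 3.79 FPKM against 4.11 and 3.303 FPKM. COL6A2 read 32.8 and 27.6 FPKM in R_DMSO and 54.5 and 48.97 FPKM in R_DT, and COL9A2 0.373 and 0.543 FPKM against 1.32 and 1.38 FPKM, apart in each case. COL13A1, at 4.59 and 2.94 FPKM in R_DMSO and 2.102 and 1.63 FPKM in R_DT, COL11A2, at 0.654 and 0.258 FPKM against 0.204 and 0.113 FPKM, and COL17A1, at 1.15 and 1.56 FPKM against 1.23 and 0.645 FPKM, pointed down or overlapped. None of these 8 chains passed, and neither did COL4A5, at 5.12 and 6.42 FPKM in R_DMSO and 11.9 and 10.7 FPKM in R_DT (0.86 ± 0.28, adjusted p = 0.123). COL15A1 read 0.776 and 0.474 FPKM in R_DMSO and 1.82 and 1.98 FPKM in R_DT (0.84 ± 0.23, adjusted p = 0.0783). COL5A3, COL14A1 and COL21A1 were listed at 0 in both R_DT libraries, and COL5A3 read 0 and 0.0192 FPKM in R_DMSO.

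Whether the response differed between lines was tested as the interaction of drug and line. It passed for 10 of 27 chains, 4 with a higher and 6 with a lower response in R, against 13.9% of all genes (6.64% higher and 7.24% lower). The type IV pair had the highest terms, COL4A1 at 3.11 ± 0.31 (adjusted p = 0.00261) and COL4A2 at 2.71 ± 0.21 (adjusted p = 0.00124). COL11A2 (-2.83 ± 0.32, adjusted p = 0.00369) and COL5A2 (-1.58 ± 0.21, adjusted p = 0.00635) responded less in R. These 4 terms passed in all 8 fits that each left out 1 library. COL5A1, which rose in each line, had a term of -0.29 ± 0.21 that did not pass (adjusted p = 0.393). The terms of COL13A1 and COL6A3, above 0, and of COL5A3, COL8A1, COL16A1 and COL21A1, below 0, did not pass in every such fit. Of the 27 chains, 4 rose in both lines (COL1A1, COL5A1, COL5A2 and COL12A1) and 2 were called in opposite directions (COL4A1 and COL4A2). Without P_DMSO replicate 1 or 2 in turn the terms were 2.77 and 3.44 for COL4A1, 2.89 and 2.54 for COL4A2, -2.71 and -2.94 for COL11A2 and -1.45 and -1.703 for COL5A2. For the less stable ones they were -2.87 and -4.77 for COL16A1, -3.37 and -2.02 for COL8A1, -1.604 and -1.82 for COL5A3, 1.99 and 1.35 for COL13A1 and 1.44 and 1.15 for COL6A3, all on the same side of 0. The term of COL21A1 (-1.21) could not change in this way, since both P_DMSO libraries read 0 FPKM. COL5A3 and COL21A1 had entered the fit through P_DT alone, and COL11A2 through P libraries alone. Leaving out P_DMSO replicate 1 or 2 gave 12 chains called each, and leaving out any 1 of the other 6 libraries gave 4.

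Under vehicle, 6 chains were higher and 6 lower in R_DMSO than in P_DMSO, against 27.6% of all genes (16.2% higher and 11.5% lower). The median difference of the 27 chains was 0.00. COL7A1 was 9.98-fold higher in R (3.12 ± 0.27, adjusted p = 0.000468), COL5A1 8.24-fold higher (2.58 ± 0.15, adjusted p = 0.000106) and COL4A6, a chain of epithelial basement membranes, was 4.52 and 3.79 FPKM in R_DMSO against 0.0149 and 0.478 FPKM in P_DMSO (2.07 ± 0.27, adjusted p = 0.00224). COL9A3 was lower in R (-4.54 ± 0.63, adjusted p = 0.00304), by -3.48 to -5.59 over the alternatives, and COL5A2 too (-1.24 ± 0.15, adjusted p = 0.00164). COL5A1 and COL5A2, which share trimers, therefore differed between lines in opposite directions. COL1A1 was higher in R (1.78 ± 0.30, adjusted p = 0.00605). These 6 calls were kept without any 1 library. COL12A1 and COL17A1 were also higher, and COL6A1, COL6A2, COL9A2 and COL11A2 also lower, with calls that were lost in at least 1 fit without 1 library. Without P_DMSO replicate 1 or 2 in turn the differences were -1.12 and -0.46 for COL6A1, -1.34 and -0.81 for COL6A2, -2.02 and -0.67 for COL9A2, -1.099 and -0.88 for COL11A2, 0.99 and 0.75 for COL12A1 and 1.05 and 0.74 for COL17A1. For the 6 kept calls they were 2.92 and 3.33 for COL7A1, 2.502 and 2.66 for COL5A1, 1.798 and 2.34 for COL4A6, -5.59 and -3.48 for COL9A3, -1.37 and -1.12 for COL5A2 and 1.89 and 1.68 for COL1A1. The sizes for COL6A1 and COL9A2 thus depended on which P_DMSO library was used. COL4A6 and COL17A1 reached 1 FPKM only in R libraries of this fit, and COL11A2 only in P libraries. The filter thus favoured the directions of these calls, including that of COL4A6 among the kept ones. The counts of chains called were 13 without P_DMSO replicate 1, 11 without P_DMSO replicate 2 and 6 without R_DMSO replicate 2.

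Under the drugs the lines stood further apart. Between R_DT and P_DT 10 chains were higher and 11 lower, against 37.6% of all genes (18.6% higher and 19% lower), and 16 of these 21 calls were kept without any 1 library. COL4A1 was 14.4-fold and COL4A2 7.25-fold higher in R_DT (3.76 ± 0.22, adjusted p = 6.97e-05, and 2.82 ± 0.15, adjusted p = 5.09e-05). COL9A3 was lower by the widest margin (-6.31 ± 0.63, adjusted p = 0.000553), followed by COL11A2 (-3.81 ± 0.23, adjusted p = 7.25e-05), COL9A2 (-3.32 ± 0.41, adjusted p = 0.00126) and COL16A1 (-3.25 ± 0.54, adjusted p = 0.00434). COL13A1 was among the chains higher in R_DT, at 2.102 and 1.63 FPKM against less than 0.1 FPKM in P_DT (1.44 ± 0.29, adjusted p = 0.00930). COL5A3, COL14A1, COL15A1, COL21A1 and COL24A1, which entered the fit through 1 group, account for 5 of the 21 calls, and COL5A3, COL21A1 and COL24A1 for 3 of the 16 that were kept. COL4A6 and COL19A1, called higher, reached 1 FPKM only in R libraries of this fit, and COL11A2, called lower, only in P libraries. The filter thus favoured these directions too, and COL4A6 and COL11A2 are among the kept calls.

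The ratio of the type V chains followed the line in every library. COL5A1 stood at 0.111 to 0.183 of COL5A2 in the 4 P libraries of the drug table and at 3.79 to 4.63 times COL5A2 in the 4 R libraries. In the hairpin tables it was 0.0267 and 0.0339 in P_shCtrl, and 13.8 and 16.7 in R_shCtrl. The hairpin against LSD1 went with ratios of 0.132 and 0.108 in P_shLSD1 and 3.65 and 3.91 in R_shLSD1, that is higher in P and lower in R, without overlap with the controls of the same table. R_shFosL1, from another table, had ratios of 9.68 and 7.84, also below both R_shCtrl libraries. Ratios were not tested.

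In the P line the LSD1 hairpin raised 4 of the 20 chains tested and lowered 0, where limma called 3.42% of all genes (2.2% higher and 1.22% lower). By unadjusted p, 14 of the 20 chains were below 0.05, against 24.6% of all genes, and the median change was 0.76 for the chains and -0.04 for all genes. COL5A3 rose from 0.544 and 0.511 FPKM in P_shCtrl to 11.98 and 9.59 FPKM in P_shLSD1, 20.4-fold (2.94 ± 0.23, adjusted p = 0.0168), having entered the fit through P_shLSD1 alone. COL5A1 rose from 1.06 and 1.66 FPKM to 11.4 and 7.86 FPKM (2.16 ± 0.28, adjusted p = 0.0299). COL12A1 rose from 8.94 and 9.65 FPKM to 21.1 and 20.8 FPKM (1.09 ± 0.16, adjusted p = 0.0366). COL4A1 rose from 33.3 and 28.0 FPKM to 64.6 and 65.3 FPKM (1.06 ± 0.16, adjusted p = 0.0366). In each of these 4 chains both hairpin libraries stood above both controls, but the share of all genes that did so was not counted. None of the 4 calls survived every removal of 1 library: 0 chains were called without either P_shLSD1 library (13 and 9 with an unadjusted p below 0.05) and 2 without either P_shCtrl library.

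Other P chains lay apart from their controls without passing. COL5A2 read 39.5 and 48.98 FPKM in P_shCtrl and 86.1 and 72.6 FPKM in P_shLSD1 (0.83 ± 0.18, adjusted p = 0.0719). COL8A1 read 1.84 and 2.27 FPKM against 8.18 and 5.75 FPKM (1.37 ± 0.26, adjusted p = 0.0536), and COL4A5 0.889 and 1.74 FPKM against 4.82 and 4.63 FPKM (1.33 ± 0.28, adjusted p = 0.0659). COL9A3 read 143 and 104 FPKM against 210 and 245 FPKM (0.88 ± 0.23, adjusted p = 0.0923). COL13A1 pointed down, with 15.1 and 12.8 FPKM against 5.15 and 7.97 FPKM (-1.01 ± 0.25, adjusted p = 0.0861). COL7A1 was uneven, at 3.25 and 0.968 FPKM in P_shCtrl and 5.05 and 12.7 FPKM in P_shLSD1 (1.66 ± 0.53, adjusted p = 0.135). COL4A2, at 90.6 and 88.5 FPKM against 101 and 95.6 FPKM, had a difference of 0.13 ± 0.15 (adjusted p = 0.642). The remaining 9 chains, none of which passed, had differences from -0.86 (COL27A1) to 1.19 (COL9A2). COL27A1 read 5.44 and 8.02 FPKM in P_shCtrl and 4.25 and 2.38 FPKM in P_shLSD1, and COL9A2 0.735 and 1.76 FPKM against 4.26 and 3.71 FPKM. COL6A1 read 56.2 and 42.2 FPKM against 71.5 and 72.3 FPKM, COL18A1 6.14 and 4.48 FPKM against 7.43 and 11.04 FPKM, COL16A1 4.85 and 4.23 FPKM against 5.73 and 5.36 FPKM and COL11A2 0.757 and 0.529 FPKM against 1.44 and 1.27 FPKM. In these 6 chains the groups did not overlap, but the share of all genes that did so was not counted. COL11A2 had entered the fit through P_shLSD1 alone and was bound to be higher there. COL6A2 read 24.7 and 21.5 FPKM against 22.5 and 22.4 FPKM and COL6A3 2.17 and 2.96 FPKM against 3.42 and 1.68 FPKM, both with overlap. COL17A1 read 1.13 and 2.38 FPKM against 0.913 and 0.4098 FPKM, without overlap. It had entered through P_shCtrl alone and was bound to be lower in P_shLSD1. COL5A3, COL11A2 and COL17A1 all count in the median of the chains. COL1A1, at 0.543 and 1.36 FPKM against 0.809 and 0.658 FPKM, and COL4A6, at 0.0953 and 0.344 FPKM against 0.393 and 0.0789 FPKM, were too low to enter the fit. The summed fibroblast markers were 38.3 and 35.5 FPKM in P_shCtrl and 70.1 and 76.7 FPKM in P_shLSD1, mostly from LUM (5.35 and 2.46 against 35.2 and 46.0 FPKM). DCN read 0.735 and 0.588 FPKM against 5.08 and 3.697 FPKM (1.69 ± 0.27, adjusted p = 0.0403) and FAP 0.8304 and 1.53 FPKM against 4.02 and 5.07 FPKM, while TWIST2 read 20.8 and 17.8 FPKM against 7.64 and 6.74 FPKM. THY1 was at or below 0.0334 FPKM and DPT listed at 0 in all 4 libraries, and 2 of the 9 markers were below 1 FPKM in both P_shLSD1 libraries. The part of these markers in the chains' values was not tested.

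In the R line the LSD1 hairpin raised 5 and lowered 4 of the 19 chains tested, against 21.8% of all genes (9.42% higher and 12.4% lower), with a median of 0.34 for the chains and -0.05 for all genes. COL12A1 rose from 19.3 and 19.5 FPKM in R_shCtrl to 51.9 and 53.3 FPKM in R_shLSD1 (1.39 ± 0.09, adjusted p = 0.00186). COL4A1 rose from 42.7 and 48.2 FPKM to 87.6 and 97.7 FPKM (1.01 ± 0.10, adjusted p = 0.00406). COL5A2 rose from 2.07 and 1.68 FPKM to 6.64 and 6.43 FPKM (1.39 ± 0.20, adjusted p = 0.0103). Replicates of these chains were close and the groups did not overlap. COL4A5 rose from 5.01 and 8.01 FPKM to 15.1 and 12.2 FPKM (0.99 ± 0.24, adjusted p = 0.0406), and COL17A1, the hemidesmosomal transmembrane collagen, from 2.29 and 2.44 FPKM to 6.61 and 5.06 FPKM (1.01 ± 0.21, adjusted p = 0.0282).

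The falls in R were those of type VI, VII and XXVII chains. COL6A3 fell from 7.88 and 8.13 FPKM to 1.32 and 0.569 FPKM (-2.24 ± 0.26, adjusted p = 0.00629), and COL6A2 from 28.7 and 26.99 FPKM to 18.04 and 16.5 FPKM (-0.66 ± 0.11, adjusted p = 0.0156). COL7A1 fell from 96.0 and 79.3 FPKM to 42.2 and 37.2 FPKM (-1.12 ± 0.12, adjusted p = 0.00515). COL27A1, a fibrillar chain of cartilage, fell from 11.4 and 10.6 FPKM to 3.92 and 4.64 FPKM (-1.19 ± 0.16, adjusted p = 0.00967). All 4 fell without overlap between groups, but the share of all genes that did so was not counted. COL6A1 read 38.8 and 27.7 FPKM in R_shCtrl and 25.5 and 22.4 FPKM in R_shLSD1 (-0.44 ± 0.18, adjusted p = 0.142), COL5A1 28.7 and 28.1 FPKM against 24.2 and 25.1 FPKM (-0.20 ± 0.09, adjusted p = 0.196) and COL1A1 10.0 and 10.5 FPKM against 7.77 and 5.82 FPKM (-0.54 ± 0.18, adjusted p = 0.0879). COL4A6 read 5.77 and 5.94 FPKM against 8.76 and 8.64 FPKM (0.50 ± 0.15, adjusted p = 0.0677). The remaining 5 chains, none of which passed, had differences from 0.28 (COL16A1) to 1.04 (COL8A1). COL8A1 read 0.691 and 1.71 FPKM in R_shCtrl and 3.199 and 3.600 FPKM in R_shLSD1, COL13A1 0.6198 and 0.976 FPKM against 1.54 and 2.39 FPKM and COL18A1 2.76 and 2.63 FPKM against 4.11 and 3.28 FPKM, each without overlap. COL16A1 read 1.84 and 3.45 FPKM against 3.002 and 3.66 FPKM, with overlap, and COL15A1 0.6702 and 0.833 FPKM against 1.22 and 1.47 FPKM. COL13A1 and COL15A1 had entered the fit through R_shLSD1 alone, so they were bound to be higher there. Both count in the median of the chains. COL9A3, at 0.674 and 0.121 FPKM against 1.56 and 0.571 FPKM, COL9A2, at 0.658 and 0.488 FPKM against 0.444 and 0.443 FPKM, and COL11A2, at 0.505 and 0.244 FPKM against 0.263 and 0.125 FPKM, were too low in both R hairpin groups to enter the fit, and COL5A3 was listed at 0 but for 0.0164 FPKM in R_shLSD1 replicate 2. The fit called 0 chains without R_shCtrl replicate 1 (9 with an unadjusted p below 0.05), 1 without R_shCtrl replicate 2, and 4 and 5 without R_shLSD1 replicate 1 and 2. COL12A1 held in 3 of these 4 fits, with an adjusted p up to 0.0534.

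COL4A1 thus rose under the LSD1 hairpin in each line while its head-to-head neighbour COL4A2 did not pass in either, at 86.8 and 91.7 FPKM in R_shCtrl and 77.5 and 80.5 FPKM in R_shLSD1 (-0.17 ± 0.07, adjusted p = 0.131). The ratio of COL4A1 to COL4A2 was 0.367 and 0.317 in P_shCtrl and 0.640 and 0.683 in P_shLSD1. It was 0.493 and 0.525 in R_shCtrl and 1.13 and 1.21 in R_shLSD1, the only group of 9 with more COL4A1 than COL4A2. In the drug table it was 0.632 and 0.685 in R_DMSO, 0.960 and 0.935 in R_DT, 0.470 and 0.483 in P_DT and uneven in P_DMSO, at 0.639 and 0.308. The ratios were not tested. The deposited coordinates place both chains in 1 joint locus, since the genes overlap at their starts. Of the 16 chains tested in both hairpin tables, COL4A1 and COL12A1 were called in both. COL7A1 was 1.66 ± 0.53 in P, without passing, and -1.12 ± 0.12 in R. The difference between lines in the response to this hairpin was not tested, because the tables were quantified separately.

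**Figure D4:**
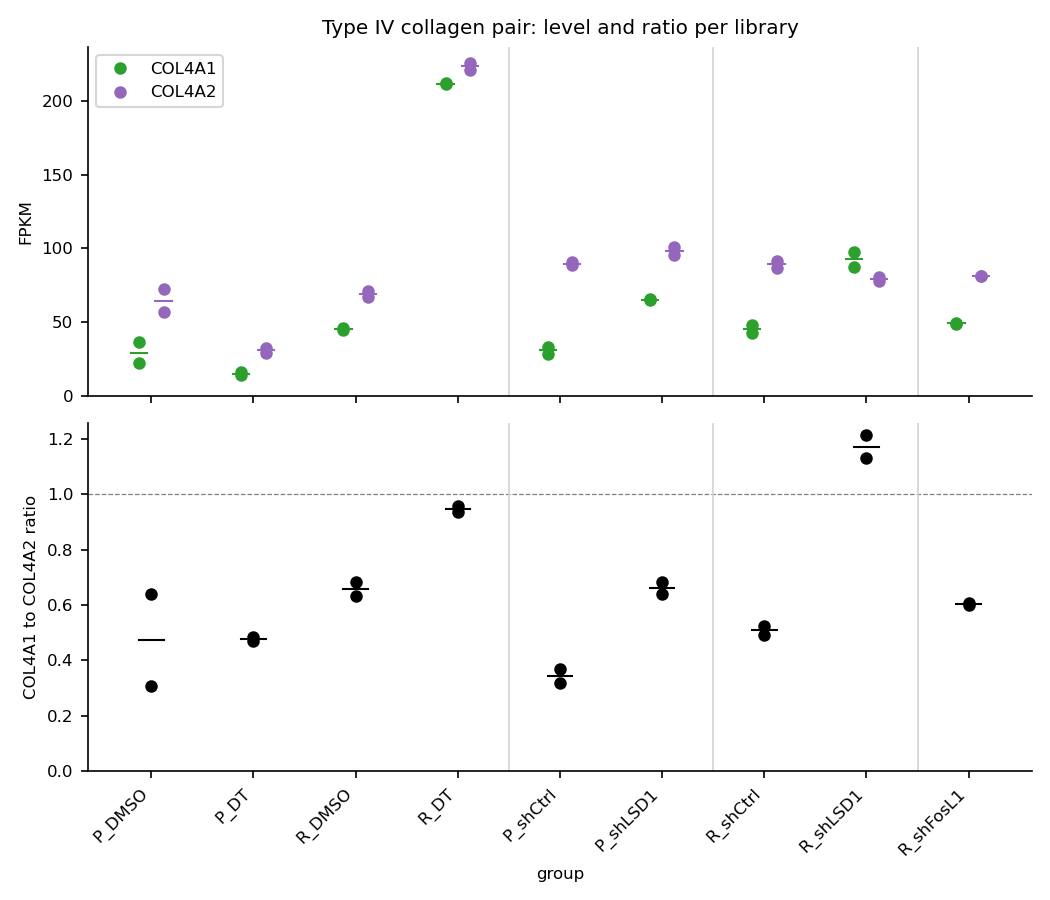
FPKM of COL4A1 and COL4A2 (upper panel) and their ratio (lower panel) in every library, with short lines at group means and vertical lines between deposited tables. The R_shLSD1 libraries have ratios of 1.13 and 1.21, the only ones above the dashed line at 1.

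**Figure D5:**
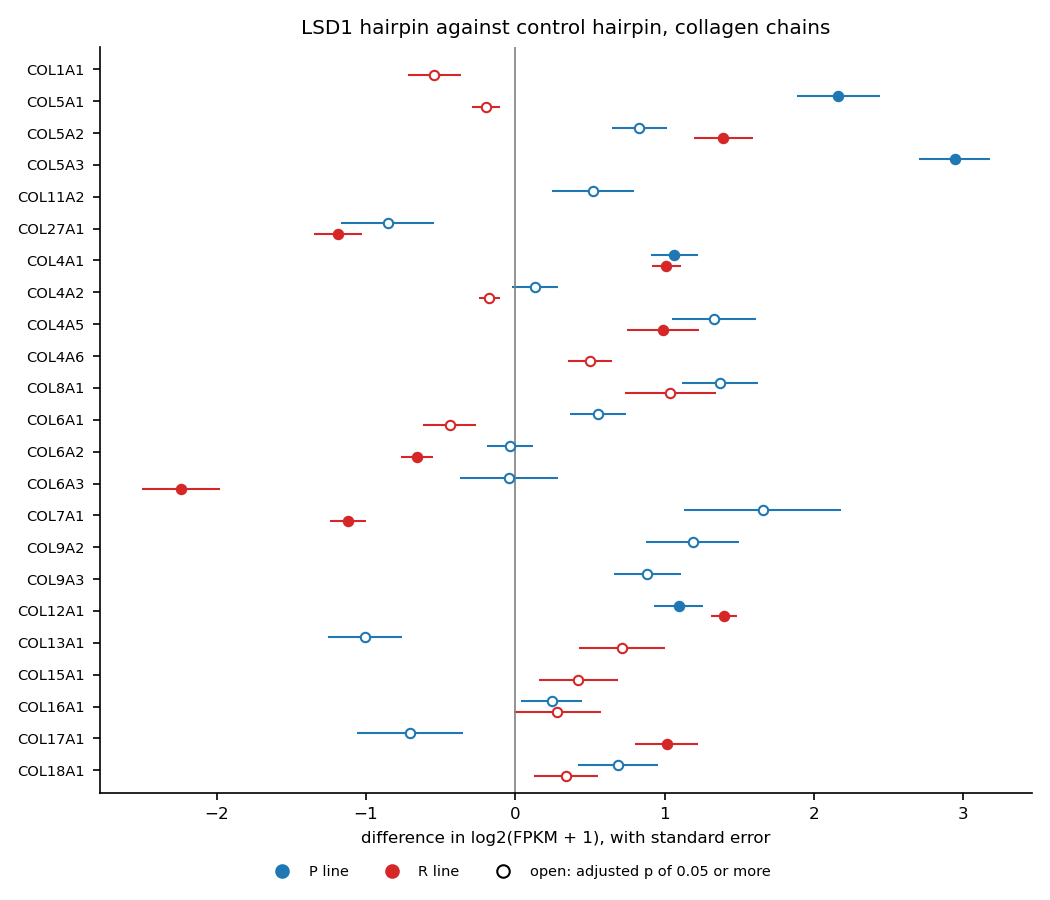
Difference in log2(FPKM + 1) between LSD1 hairpin and control hairpin libraries, with its standard error, for chains tested in the P table (blue) or the R table (red). Filled points passed an adjusted p of 0.05, and COL4A1 and COL12A1 are filled in both lines, between 1.01 and 1.39.

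The FOSL1 hairpin stands in a table without controls, so R_shFosL1 was set beside R_shCtrl of another table with no test. A chain counted as past the fold when its log2 difference reached 1 or -1 and no library of one group fell within the other, which 5.86% of all genes were (2.57% higher and 3.3% lower). Of 17 chains, COL6A3 alone was past it, at 7.88 and 8.13 FPKM in R_shCtrl and 0.5002 and 1.00 FPKM in R_shFosL1 (-2.38). Its partners read 20.2 and 23.2 FPKM (COL6A1, -0.58) and 22.9 and 21.3 FPKM (COL6A2, -0.32) in R_shFosL1. The median over the 17 chains was -0.32 and over all genes 0.02. COL5A1 read 15.7 and 15.9 FPKM (-0.81) and COL7A1 49.2 and 48.6 FPKM (-0.82), each below both control libraries. COL4A1, at 48.7 and 49.2 FPKM, COL4A2, at 81.1 in both libraries, COL12A1, at 20.6 and 24.8 FPKM, and COL1A1, at 13.2 and 13.4 FPKM, differed from the controls by 0.11, -0.13, 0.21 and 0.34. The other 8 chains differed by -0.94 (COL4A6) to 0.19 (COL18A1). COL4A6 read 2.88 and 2.297 FPKM in R_shFosL1, COL4A5 4.89 and 1.97 FPKM, COL27A1 10.3 and 10.4 FPKM, COL18A1 3.61 and 2.86 FPKM, COL5A2 1.62 and 2.03 FPKM, COL16A1 1.76 and 0.948 FPKM, COL17A1 1.13 and 0.479 FPKM and COL8A1 0.8798 and 1.27 FPKM. Of the chains too low to be compared there, COL13A1 was at 1.203 and 0.659 FPKM, COL9A2 at 0.873 and 0.703 FPKM, COL9A3 at 0.652 and 0.5895 FPKM and COL11A2 at 0.575 and 0.125 FPKM. R_shLSD1 and R_shFosL1 share the R_shCtrl libraries as control, and COL6A3 was below that control in both. R_shCtrl had the highest mean of COL6A3 among the 9 groups. In R_DMSO, the vehicle group of the same line in another table, COL6A3 read 2.28 and 1.64 FPKM. The R_shLSD1 libraries, at 1.32 and 0.569 FPKM, and the R_shFosL1 libraries were still below both. The part of the high shared control in these differences was not tested. COL6A3 was near 0 in P_DT and at 2.17 to 2.96 FPKM in P_shCtrl.

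Genes that make, export and bind collagen were followed as 6 lists, whose counts are read against the share of all genes called. That share was 12.8% higher and 9.67% lower in P_DT, 3.65% and 2.83% in R_DT, 2.2% and 1.22% in P_shLSD1 and 9.42% and 12.4% in R_shLSD1. The medians of all genes lay between -0.05 and 0.11 in these comparisons. The modification and folding list, which holds prolyl and lysyl hydroxylases and chaperones, had 7 of 17 tested genes higher and 0 lower in P_DT (median 0.58), where 22.5% of all genes were called, and 4 and 0 in R_DT (0.30), where 6.48% were. It had 7 and 0 of 16 in P_shLSD1 (0.84), against 3.42% of all genes, and 8 and 0 of 16 in R_shLSD1 (0.48), against 21.8%. The prolyl 3-hydroxylase P3H2 was higher in P_DT (2.41 ± 0.21, adjusted p = 0.000743), in R_DT (1.44 ± 0.21, adjusted p = 0.0138), in P_shLSD1 (1.72 ± 0.23, adjusted p = 0.0320) and in R_shLSD1 (2.001 ± 0.46, adjusted p = 0.0352). In P_DT it was followed by P4HB, the beta subunit of prolyl 4-hydroxylase, at 286 against 157 FPKM (0.86 ± 0.12, adjusted p = 0.00391), and by SERPINH1, the collagen chaperone HSP47, at 69.4 against 30.5 FPKM (1.16 ± 0.16, adjusted p = 0.00414). The response of SERPINH1 was lower in R (interaction -1.38 ± 0.23, adjusted p = 0.0126). The list was led in P_shLSD1 by the lysyl hydroxylase PLOD1, at 134 against 49.3 FPKM (1.43 ± 0.15, adjusted p = 0.0224), and in R_shLSD1 by the collagen galactosyltransferase COLGALT1, at 114 against 69.2 FPKM (0.71 ± 0.06, adjusted p = 0.00341). Between the vehicle groups PLOD2, another lysyl hydroxylase, had the smallest adjusted p, at 104 against 20.03 FPKM in R_DMSO and P_DMSO (2.33 ± 0.15, adjusted p = 0.000185).

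The cross-linking list moved in both directions. Of 4 tested genes 2 were higher and 1 lower in P_DT and 2 and 0 in R_DT, against 22.5% and 6.48% of all genes called, and 2 and 0 of 3 in P_shLSD1 and 1 and 0 of 3 in R_shLSD1, against 3.42% and 21.8%. The lysyl oxidase LOXL3 averaged 155 against 19.5 FPKM in P_DT and P_DMSO (2.93 ± 0.16, adjusted p = 0.000172), 121 against 28.98 FPKM in P_shLSD1 and P_shCtrl (2.03 ± 0.17, adjusted p = 0.0168), and 17.3 against 9.41 FPKM in R_shLSD1 and R_shCtrl (0.81 ± 0.15, adjusted p = 0.0215). LOXL2, which cross-links type IV collagen, averaged 324 against 83.1 FPKM in R_DT and R_DMSO (1.95 ± 0.18, adjusted p = 0.00358). LOXL4, like the type IV pair, fell in P_DT (-1.43 ± 0.16, adjusted p = 0.00186) and rose in R_DT (1.01 ± 0.16, adjusted p = 0.0180), with an interaction of 2.44 ± 0.22 (adjusted p = 0.00215).

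Among receptors, which include the collagen-binding integrins and the kinases DDR1 and DDR2, 3 of 6 were higher and 1 lower in each line under the drugs, against 22.5% of all genes called in P and 6.48% in R. The 3 were ITGA2, DDR1 and ITGB1 in P, with DDR2 lower, and ITGA1, DDR2 and ITGB1 in R, with ITGA2 lower. ITGA2, an integrin chain that binds fibrillar collagen, averaged 32.9 against 14.2 FPKM in P_DT and P_DMSO (1.15 ± 0.17, adjusted p = 0.00582). DDR1 averaged 148 against 25.7 FPKM there (2.66 ± 0.42, adjusted p = 0.00682). ITGA1, whose integrin binds type IV collagen, averaged 31.8 against 4.17 FPKM in R_DT and R_DMSO (2.72 ± 0.29, adjusted p = 0.00623). Under the LSD1 hairpin 0 of 6 receptors were called in P, against 3.42% of all genes, though their median change was 0.83. In R 0 of 5 were higher and 2 lower (median -0.24), against 21.8%. ITGA2 fell there, at 8.12 against 25.2 FPKM (-1.52 ± 0.14, adjusted p = 0.00355). It averaged 1.37 against 25.2 FPKM in R_shFosL1 and R_shCtrl (-3.46, no test).

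Of the export and processing list, 2 of 11 genes were higher and 1 lower in P_DT and 0 and 2 in R_DT, against 22.5% and 6.48% of all genes called, and 2 and 0 of 10 in P_shLSD1 and 3 and 1 of 10 in R_shLSD1, against 3.42% and 21.8%. MIA2, which acts in the export of large cargo from the endoplasmic reticulum, fell in P_DT, at 3.78 against 10.2 FPKM (-1.22 ± 0.18, adjusted p = 0.00506), while BMP1, which trims fibrillar procollagens, rose there, at 31.8 against 8.14 FPKM (1.91 ± 0.36, adjusted p = 0.0124). PCOLCE2, a procollagen C-proteinase enhancer, fell in R_DT, at 0.785 against 3.79 FPKM (-1.42 ± 0.22, adjusted p = 0.0163), and rose in R_shLSD1, at 7.9 against 1.87 FPKM (1.67 ± 0.27, adjusted p = 0.0148). The proprotein convertase FURIN was higher in P_shLSD1, at 60.2 against 26.7 FPKM (1.14 ± 0.15, adjusted p = 0.0301).

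Of the fibril-associated proteins, 3 of 8 were higher in P_DT and 4 of 8 in R_DT with 0 lower, against 22.5% and 6.48% of all genes called. In P_shLSD1 4 of 10 were higher and 1 lower, against 3.42%, and in R_shLSD1 5 of 6 higher and 0 lower, against 21.8%. Thrombospondin 1 (THBS1) averaged 333 against 19.9 FPKM in P_DT and P_DMSO (3.997 ± 0.12, adjusted p = 4.11e-05) and 65.5 against 12.8 FPKM in R_DT and R_DMSO (2.27 ± 0.12, adjusted p = 0.000436). SPARC, which binds collagen, was higher in P_DT (1.78 ± 0.11, adjusted p = 0.000238), in R_DT (1.25 ± 0.11, adjusted p = 0.00340), in P_shLSD1 (1.702 ± 0.23, adjusted p = 0.0323) and in R_shLSD1 (1.54 ± 0.07, adjusted p = 0.00110). The proteoglycans LUM and BGN, which coat fibrils, went opposite ways in P_shLSD1, LUM at 40.6 against 3.905 FPKM (3.14 ± 0.33, adjusted p = 0.0224) and BGN at 7.65 against 27.4 FPKM (-1.73 ± 0.20, adjusted p = 0.0256). LUM and DCN of this list are also among the fibroblast markers.

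Of 18 transcription and TGF-beta genes, 5 were higher and 3 lower in P_DT and 3 and 2 in R_DT, against 22.5% and 6.48% of all genes called, and 1 and 1 of 16 in P_shLSD1 and 2 and 3 of 17 in R_shLSD1, against 3.42% and 21.8%. The AP-1 subunits JUN and FOSL2 were higher in P_DT, JUN at 305 against 12.4 FPKM (4.59 ± 0.29, adjusted p = 0.000259) and FOSL2 at 35.8 against 6.27 FPKM (2.36 ± 0.21, adjusted p = 0.000791). TGFB2 averaged 25.2 against 2.01 FPKM in R_DT and R_DMSO (3.11 ± 0.20, adjusted p = 0.000979). SOX9, a cartilage collagen regulator, fell in P_shLSD1, at 2.06 against 11.2 FPKM (-1.998 ± 0.21, adjusted p = 0.0224), and the receptor TGFBR2 rose there (1.13 ± 0.19, adjusted p = 0.0457) and in R_shLSD1 (1.16 ± 0.09, adjusted p = 0.00273). In R_shLSD1 JUNB fell, at 51.3 against 112 FPKM (-1.11 ± 0.07, adjusted p = 0.00202), and JUN rose (0.98 ± 0.07, adjusted p = 0.00228). Against R_shCtrl, with 5.86% of all genes past the fold, R_shFosL1 had 1 modification gene higher (FKBP14), 2 receptors lower (ITGA2 and ITGA1), and 1 transcription gene higher (EGR1) and 2 lower (SOX9 and CREB3L2).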

How the data were processed

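The authors deposited 4 tables of FPKM values per gene, 18 columns in all (0 not assigned). Per the submitters' processing notes they used CASAVA 1.4, HISAT2 2.1.0 with hg38 and Cufflinks 2.2.1, whose settings are not given in the sources used here. A deposited p-value column from the authors was not used. The labels' protocols name a directional kit and an rRNA-depleted protocol on different sequencers without assigning samples. The authors' deposited status reads failed for FN1 among the drug libraries and for 4 genes among the FOSL1 libraries, which were left out there, and 27 symbols that a spreadsheet turned into dates held no chain.

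log2(FPKM + 1) was tested with limma 3.58.1 in R 4.3.3 (eBayes with trend and robust fitting, tested on simulated data) over all genes that reached 1 FPKM in 2 or more libraries of that fit. Adjusted p is Benjamini-Hochberg over all genes, with a threshold of 0.05. The 8 drug libraries were fitted together and each hairpin table alone. R_shFosL1 was described without a test. Groups of 2 libraries can lie apart without a difference. The share of all genes whose groups did not overlap was not counted for the drug and LSD1 comparisons. The pseudocount understates changes of low genes. Chains, types and gene lists were chosen with earlier results of these data known. Every described chain is accounted for, and values per library are given for called chains averaging 5 FPKM or more in some group. Genes of a list were taken from the 4 with the smallest adjusted p in a comparison, the first included for the drug and LSD1 comparisons, with DCN and P3H2 of R_shLSD1 added from outside them after their values were seen. Python 3.11.15, numpy 2.4.6, pandas 2.3.3 and matplotlib 3.10.9 were used.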

Additional observations from a re-analysis of the deposited data

Results flagged for a closer look

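For 10 chains the response to the drugs differed between the lines by the interaction term of limma, as the difference in log2(FPKM + 1) response of R minus P. The response was higher in R for COL4A1 (3.11), COL4A2 (2.71), COL13A1 (1.67) and COL6A3 (1.30). COL13A1 and COL6A3 fell in P and did not pass in R. The response was lower in R for COL16A1 (-3.82), COL11A2 (-2.83), COL8A1 (-2.69), COL5A3 (-1.71), COL5A2 (-1.58) and COL21A1 (-1.21). COL5A2 rose in both lines, and the other 5 rose in P and did not pass in R. The terms of COL4A1, COL4A2, COL11A2 and COL5A2 passed in all 8 fits that each left out 1 library. COL16A1 rests on uneven P_DMSO libraries (0.979 and 6.40 FPKM), and COL5A3 and COL21A1 entered the fit through P_DT alone. COL11A2 entered it through P libraries alone.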

How the results depend on the processing

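Of the alternatives other than leaving out 1 library, 494 kept a chain's call and direction and 65 lost the call, and with 1 library left out 225 kept it and 147 lost it. No chain reversed. CRTAP alone reversed, with -0.013 for R_DT against P_DT when each library was scaled to 1000000 FPKM in total. The numbers of chains called without 1 library ranged from 10 to 20 for P_DT against P_DMSO (19 with all), 2 to 3 for R_DT against R_DMSO (7), 6 to 13 for R_DMSO against P_DMSO (12), 16 to 17 for R_DT against P_DT (21), 4 to 12 for the interaction (10), 0 to 2 for the LSD1 hairpin in P (4) and 0 to 5 in R (9), and 1 to 4 past the fold for the FOSL1 hairpin (1). Over all genes the calls in the same order ranged from 1361 to 6136 (3861 with all), 66 to 107 (1114), 2275 to 5850 (4751), 3768 to 3867 (6462), 713 to 4556 (2385), 4 to 336 (504), 0 to 903 (3118) and 999 to 1090 (834). Such fits leave 1 sample in a group, assumed to vary like the others. With the libraries of the 2 groups alone, 10 chains were called for P_DT against P_DMSO and 6 for R_DMSO against P_DMSO (1447 and 2529 of all genes). R_DT against R_DMSO then had 9 of 22 chains higher and 0 lower (2506 of all genes). R_DT against P_DT had 11 of 25 higher and 11 lower (8429 of all genes). With every gene above 0 FPKM kept, 6 chains were called for the interaction and, by limma, 0 for the LSD1 hairpin in P (14 with an unadjusted p below 0.05). Without trend or robust fitting the latter gave 2. A pseudocount of 0.1 put 4 chains past the FOSL1 fold, and the scaled totals 2. Scaled totals took the all-gene median of the interaction from -0.16 to -0.39 and that of R_DT against P_DT from -0.05 to -0.39, and the higher share of all calls from 47.8% to 27.6% and from 49.5% to 27.3%. It took that share from 57.0% to 71.2% for P_DT against P_DMSO (median 0.11 to 0.22), from 56.3% to 43.6% for R_DT against R_DMSO (median -0.03 to -0.14) and from 64.3% to 49.5% for the LSD1 hairpin in P.

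Same-numbered libraries share only a number: their deviations correlated at -0.16 to 0.07 in the drug table, -0.28 in the P hairpin table and 0.02 in the R hairpin table. With the replicate block, 6 chains were called for the interaction and 8 for the LSD1 hairpin in P, and with the crossed numbers, chosen after seeing the data, 14. The cause was not tested. Depth limits the chains near 1 FPKM, and the uneven P_DMSO libraries limit the comparisons with them. Through the spread shared by the drug fit, the P_DMSO libraries also enter the standard errors of R_DT against R_DMSO and against P_DT.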
